A study of Mus musculus with 22 samples.

Results

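Megalin (Lrp2), cubilin (Cubn), amnionless (Amn), the adaptor Dab2, the apolipoproteins Apoe, Apoa1 and Apob and the carrier transthyretin (Ttr) are 8 genes named for the uptake and secretion of proteins and lipids by endoderm. They were chosen by symbol, and all 8 were found among the 21881 symbols of the count table. The study profiled RNA of 8 mouse blastocysts (embryonic day 3.5) and of stem cell lines of the 3 lineages of the blastocyst. Its design sets Nanog-null embryos against wild-type ones and places the 3 kinds of lines beside them.

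There were 4 Nanog-null embryos (2 female, F1 and F2, and 2 male, M1 and M2), 2 heterozygous embryos and 2 wild-type embryos, with 1 female and 1 male of each of these last genotypes; heterozygous and wild-type embryos together are called Nanog-bearing. The lines were XEN (extraembryonic endoderm) M1 and M2, both male, TS (trophoblast stem) F1, F2 and M3, and ES (embryonic stem) F1 and M2, the ES lines in serum-free culture, with F female and M male. All lines are labelled Nanog wild type, and each gave 2 libraries, labelled technical replicates and said to come from different passages, which are not independent of each other. The labels give neither strain nor litter nor the nature of the null allele, so p-values measure the spread between these samples. Embryo libraries came from amplified cDNA of whole embryos and line libraries from a standard RNA kit, so embryos and lines were not tested against each other.

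In the visceral endoderm and yolk sac, megalin and cubilin are large surface receptors that take up vitamin carriers, albumin and lipoproteins from the maternal side. Amnionless anchors cubilin in the membrane and brings it to the cell surface, and Dab2 links these receptors to clathrin-coated pits. The same cells secrete apolipoproteins, which package and address lipid particles, and transthyretin, which carries thyroid hormone and, with Rbp4, retinol.

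A library held 16400288 to 21891378 counts in Nanog-null, 14768624 to 23272530 in heterozygous and 23633097 to 32231620 in wild-type embryos. Line libraries held 12659293 to 23677126 counts in XEN, 9966333 to 16486987 in TS and 8201801 to 9551415 in ES cells. Levels below are CPM, the usual scaling of a count by the total count of its library. Nanog stood at 0.300 to 0.624 CPM in the null embryos, against 53.6 to 87.6 CPM in heterozygous and 107 to 137 CPM in wild-type embryos, which fits the labels. The summed level of the 5 XEN markers (Gata6, Gata4, Sox17, Sox7, Pdgfra) was 2021 to 3079 CPM in XEN, 24.9 to 43.8 CPM in TS and 5.64 to 11.2 CPM in ES libraries. XEN libraries held both visceral markers (527 to 880 CPM over 5 genes) and parietal markers (31628 to 45960 CPM over 6 genes). The 7 fibroblast markers summed to 0.158 to 11.1 CPM in XEN, 10.2 to 219 CPM in TS and 4.99 to 7.22 CPM in ES libraries. The 8 macrophage markers summed to 8.83 to 22.3 CPM in XEN, 229 to 952 CPM in TS and 409 to 703 CPM in ES libraries, where Ptprc, Lyz2, Tyrobp and C1qa were at 0. Of genes averaging at least 5 CPM in the other embryos, the null embryos F1, F2, M1 and M2 lacked 570, 300, 133 and 809, against 40 to 68 in the Nanog-bearing embryos. In bulk RNA, fewer cells of a type and less RNA per cell cannot be told apart.

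The promoters of 4 genes are printed: Cubn and Amn, partners in 1 receptor with unlike levels, and Dab2 (first start) and Apoa1. Those of Dab2 and Apoa1 were picked because they held GATA letters, so the printed windows do not show how common such letters are among the members. Of the 8 genes, 7 had an entry in the RefSeq promoter table (GRCm38.p6, 250 bases before to 50 after a start). Capitals mark matches, on either strand, to the GATA letters AGATAA or TGATAA or AGATAG or TGATAG, which 29.8% of 32851 mouse promoters of this length hold. The windows are Cubn at chr2:13491827-13492126, minus strand; Amn at chr12:111270846-111271145, plus strand; Dab2, first start, at chr15:6299539-6299838, plus strand; and Apoa1 at chr9:46228380-46228679, plus strand.
Cubn: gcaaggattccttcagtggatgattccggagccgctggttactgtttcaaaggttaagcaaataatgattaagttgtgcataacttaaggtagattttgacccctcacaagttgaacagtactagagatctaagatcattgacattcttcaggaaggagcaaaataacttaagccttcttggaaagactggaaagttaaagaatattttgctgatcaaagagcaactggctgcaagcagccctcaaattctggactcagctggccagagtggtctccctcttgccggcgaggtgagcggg
Amn: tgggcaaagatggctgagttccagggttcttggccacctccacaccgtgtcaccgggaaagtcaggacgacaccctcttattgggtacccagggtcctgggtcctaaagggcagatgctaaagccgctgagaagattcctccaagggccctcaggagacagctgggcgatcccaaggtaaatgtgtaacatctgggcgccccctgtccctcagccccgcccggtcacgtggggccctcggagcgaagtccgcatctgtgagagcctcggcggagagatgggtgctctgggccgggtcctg
Dab2: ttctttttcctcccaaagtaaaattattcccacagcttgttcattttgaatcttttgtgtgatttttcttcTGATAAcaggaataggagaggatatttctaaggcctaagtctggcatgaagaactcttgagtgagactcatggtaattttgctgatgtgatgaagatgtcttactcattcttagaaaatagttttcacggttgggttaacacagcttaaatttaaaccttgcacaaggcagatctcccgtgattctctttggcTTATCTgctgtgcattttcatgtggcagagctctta
Apoa1: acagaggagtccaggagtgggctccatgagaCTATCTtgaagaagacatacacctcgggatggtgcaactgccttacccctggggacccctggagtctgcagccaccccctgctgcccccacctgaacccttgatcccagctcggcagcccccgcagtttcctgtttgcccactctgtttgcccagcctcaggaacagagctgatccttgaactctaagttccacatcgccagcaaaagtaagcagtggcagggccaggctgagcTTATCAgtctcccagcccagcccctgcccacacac
The first start of Dab2 and the start of Apoa1 held 2 GATA matches each. Start 2 of Dab2, starts 1 and 2 of Apoe, and Cubn, Amn, Lrp2 and Apob held none. Other letters were searched on both strands in these windows: GTTAAT (part of the HNF1 site; 7.10% of promoters), TGTTTAC or else TATTTAC (FOX; 6.54%), ACAAAG or else ACAATG (SOX; 28.6%) and CAAAGTCCA (HNF4; 0.475%). Among the members these occurred in start 2 of Dab2 (1 HNF1), start 1 of Apoe (2 SOX) and start 3 of Apoe (1 HNF1 and 1 FOX, with 1 GATA). A match describes letters only.

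Between the lineages, 6 of the 8 genes were higher in XEN than in ES lines by edgeR (adjusted p under 0.05) and none was lower, where 21.8% of 14687 tested genes were higher and 45.1% changed in either direction. Against TS lines, 7 of 8 were higher in XEN, where 16.4% of genes were higher and 36.7% changed in either direction. Lrp2, Cubn, Dab2, Apoa1, Apob and Ttr were higher in XEN in both comparisons, which share the XEN lines. Ttr passed the low-count filter only through its XEN counts, so its direction was fixed beforehand and its calls add no support. Cubn, Apoa1 and Apob also needed their XEN counts to pass it, reaching at most 0.499, 0.106 and 0.476 CPM in any TS or ES line. Their direction was thus all but fixed as well, their calls add no support, and their p-values for XEN below only describe. This leaves Lrp2 and Dab2 in both comparisons and Apoe against TS. Apoe was higher in XEN than in TS only, and Amn changed in neither.

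**Figure D1:**
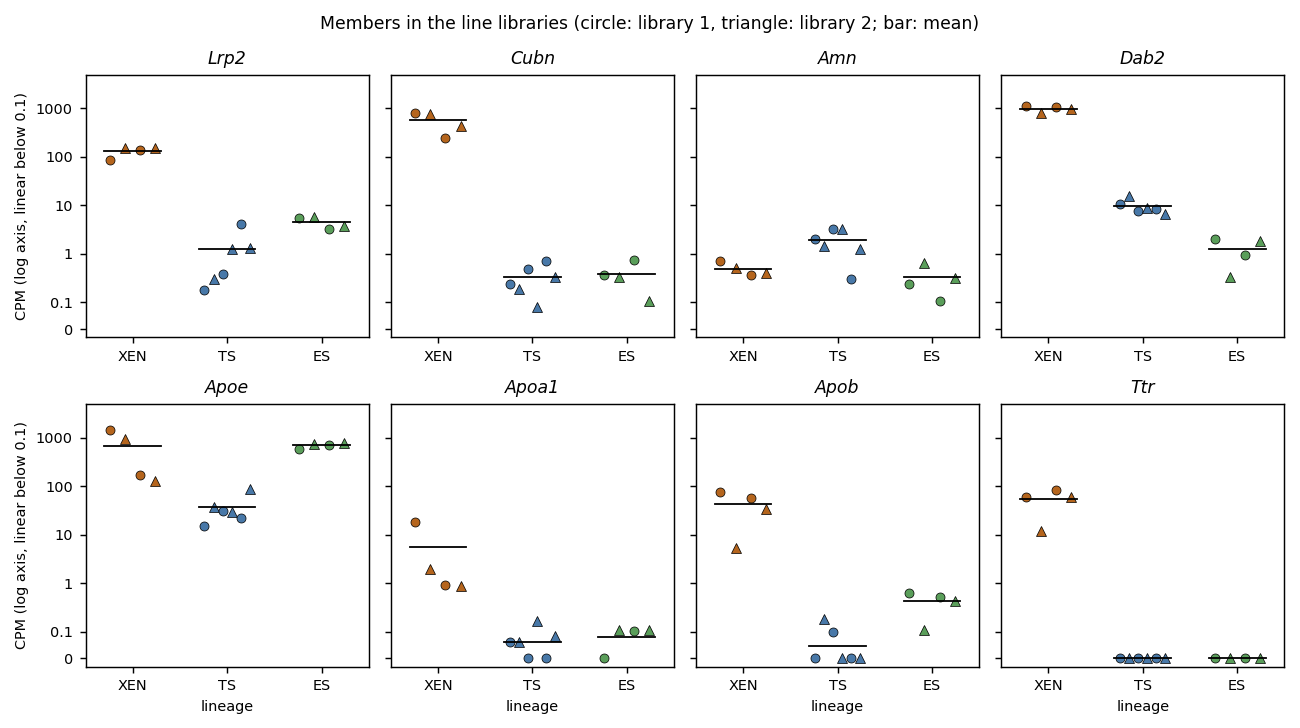
Level of each gene in every line library (CPM, log axis, linear below 0.1), for 4 XEN, 6 TS and 4 ES libraries; circles are library 1 and triangles library 2 of a line, and bars are means. Ttr is at 0 in all TS and ES libraries, Apoe is as high in ES as in XEN libraries, and Amn is highest in TS libraries.

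Lrp2, the megalin receptor, stood at 87.4 and 151 CPM in the XEN M1 libraries and 141 and 155 CPM in the XEN M2 libraries. The 6 TS libraries ran from 0.182 CPM over a median of 0.811 to 4.21 CPM, and the ES libraries held 5.36 and 5.75 CPM in F1 and 3.25 and 3.85 CPM in M2. All XEN libraries lay above all others, and TS and ES libraries overlapped. By line the mean was 137 ± 13.5 CPM in XEN (SD, n = 2), 1.24 ± 1.24 CPM in TS (n = 3) and 4.55 ± 1.43 CPM in ES (n = 2). The log2 fold change was 5.25 (SE 0.90, edgeR adjusted p = 0.00316) against ES and 7.07 (SE 0.83, adjusted p = 0.000850) against TS; without TS line M3, the one with most Lrp2, it was 8.38 against TS. Between TS and ES, the difference of -1.83 (SE 0.76) did not pass (edgeR adjusted p = 0.0896).

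Cubn, the cubilin receptor, had the largest fitted fold change of the 7 genes with counts in all lineages. The XEN M1 libraries held 807 and 775 CPM and the XEN M2 libraries 249 and 437 CPM. The TS libraries ran from 0.0824 CPM over a median of 0.287 to 0.702 CPM, and the ES libraries held 0.366 and 0.325 CPM in F1 and 0.733 and 0.107 CPM in M2. Every XEN library lay far above all TS and ES libraries, which overlapped. The log2 fold change in XEN was 10.81 (SE 0.68, edgeR adjusted p = 6.29e-05) against ES and 11.02 (SE 0.56, adjusted p = 3.79e-05) against TS, from 40029 counts in XEN, 24 in TS and 14 in ES; without XEN line M1 these were 10.05 and 10.25. TS and ES differed by -0.21 (95% interval -1.81 to 1.39 on the log2 scale).

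Amn, the membrane partner of cubilin, did not follow Cubn. Its libraries held 0.716, 0.507, 0.358 and 0.395 CPM in XEN (M1, then M2), from 34 counts in all. TS libraries ran from 0.301 CPM over a median of 1.71 to 3.30 CPM (147 counts), and ES libraries held 0.244, 0.651, 0.105 and 0.320 CPM (F1, then M2; 12 counts). XEN and ES libraries overlapped, and 5 of the 6 TS libraries lay above every XEN and ES library. XEN differed from ES by 0.85 (SE 0.82, edgeR adjusted p = 0.434) and from TS by -1.70 (SE 0.72, adjusted p = 0.105) on the log2 scale, and the change from TS was called without TS line M3 (-2.03, adjusted p = 0.0492). Amn was higher in TS than in ES by 2.54 (SE 0.79, edgeR adjusted p = 0.0360), a call that ended without ES F1 (3.22), ES M2 (2.07), TS F1 (2.63) or TS F2 (1.97).

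Dab2, the clathrin adaptor, was the most even of the genes among XEN libraries. It stood at 1122 and 791 CPM in M1 and 1069.5 and 956 CPM in M2. The TS libraries ran from 6.71 CPM over a median of 8.62 to 15.9 CPM, and the ES libraries held 2.07 and 0.325 CPM in F1 and 0.942 and 1.82 CPM in M2. The lineages did not overlap at any point, in the order XEN, TS, ES. Dab2 was higher in XEN by 9.92 (SE 0.40, edgeR adjusted p = 1.65e-05) against ES and by 6.92 (SE 0.29, adjusted p = 1.91e-05) against TS, and higher in TS than in ES by 3.00 (SE 0.31, adjusted p = 0.000594), all on the log2 scale.

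Apoe, which directs lipid particles to receptors of the LDL family, separated the XEN lines. The M1 libraries held 1429 and 938 CPM and the M2 libraries 167 and 125 CPM, while the ES libraries held 583, 723, 690 and 767 CPM. The TS libraries ran from 14.7 CPM over a median of 30.1 to 87.5 CPM. ES libraries thus lay between the XEN lines, and TS libraries lay below both. XEN and ES differed by 0.21 (SE 0.80, 95% interval -1.67 to 2.09; edgeR adjusted p = 0.850), but without XEN M1 the same difference was -1.85 (adjusted p = 0.0486). Apoe was higher in XEN than in TS by 4.31 (SE 0.78, edgeR adjusted p = 0.00500; 2.25 without XEN M1 and 5.13 without XEN M2), and lower in TS than in ES (log2 fold change -4.10, SE 0.77, adjusted p = 0.00588). The summed level of the macrophage markers, whose cells make much Apoe, was lowest in XEN, but single markers differed in direction. Of 4 tested against ES, 1 was higher in XEN (Csf1r, log2 fold change 6.36) and 2 were lower (Laptm5 and Cd68). Ptprc, Lyz2, Tyrobp and C1qa were at 0 in ES libraries. The part of such cells in the Apoe levels was not tested.

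Apoa1, the main protein of high-density lipoprotein, rested in the XEN lines mostly on 1 library. XEN M1 held 18.5 and 1.94 CPM and XEN M2 0.922 and 0.869 CPM, against 0 to 0.165 CPM in TS (median 0.0612) and 0, 0.108, 0.105 and 0.107 CPM in ES libraries. XEN libraries were all above the rest, which held 5 counts in TS and 3 in ES. The fitted log2 fold change was 6.02 (SE 1.24, edgeR adjusted p = 0.00663) against ES and 6.28 (SE 1.03, adjusted p = 0.00338) against TS, and 3.73 and 3.98 without XEN M1 (6.87 and 7.13 without XEN M2). The call against ES ended without ES F1 (adjusted p = 0.0538). The ratio of pooled levels, XEN to ES, was 57.8 with a counting interval of 19.6 to 282.

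Apob, the scaffold of very-low-density particles, held 75.5 and 5.24 CPM in XEN M1 and 56.1 and 33.6 CPM in XEN M2. TS libraries held 0 to 0.185 CPM (median 0) and ES libraries 0.610, 0.108, 0.523 and 0.427 CPM. Again no XEN library reached down to the others. Apob was higher in XEN by 6.90 (SE 0.60, edgeR adjusted p = 0.000208) against ES and 9.74 (SE 0.60, adjusted p = 6.79e-05) against TS (10.73 without TS F1), on 4 counts in TS and 15 in ES. TS was lower than ES (log2 fold change -2.84, SE 0.69, edgeR adjusted p = 0.0155; -3.83 without TS F1); the call ended without ES F1 (-3.03) or ES M2 (-2.62).

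Ttr, the thyroid hormone and retinol carrier, was read in XEN libraries only among the lines, at 58.9 and 11.6 CPM in M1 and 81.4 and 60.7 CPM in M2. All 6 TS and 4 ES libraries were at 0. Against 3 counts over the group as a floor, it was at least 1274-fold higher in XEN than in TS and at least 599-fold higher than in ES. No p-value is given, because Ttr passed the low-count filter only through the XEN lines and had no counts in the other lines. Between TS and ES, 4 of the 7 genes tested changed, 2 higher (Amn, Dab2) and 2 lower (Apoe, Apob) in TS; of all tested genes 41.3% changed, 21.3% higher and 20% lower.

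**Figure D2:**
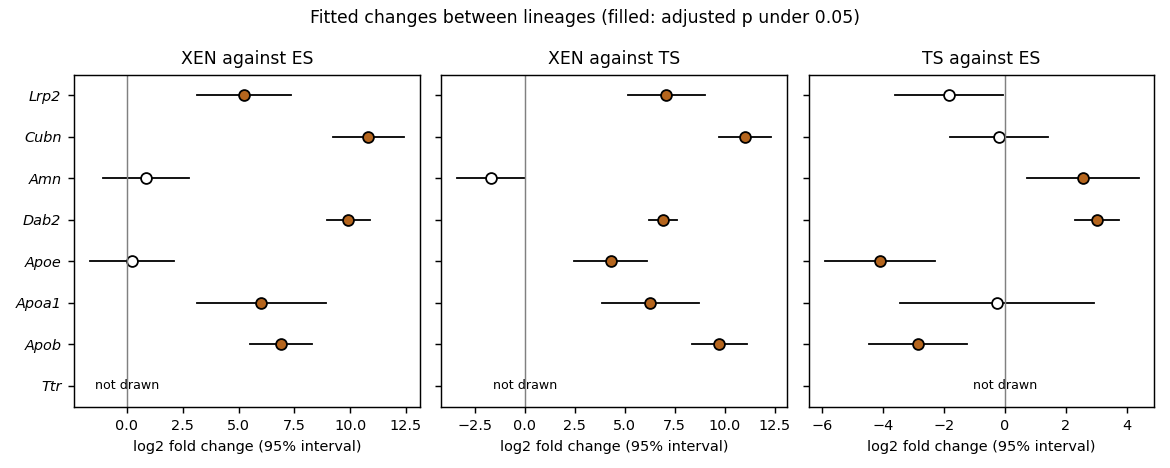
Fitted log2 fold change of each gene with its 95% interval between lineages (7 lines); filled circles passed an edgeR adjusted p of 0.05. Of the genes drawn, Cubn and Dab2 show the largest changes in XEN against ES and Cubn and Apob against TS, Apoe lies near 0 against ES, and Ttr is not drawn because TS and ES lines are at 0.

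Per kilobase of the longest coding transcript, Apoe (451 ± 487 CPM per kb, SD, n = 2) and Dab2 (208 ± 16.9) led the XEN lines. Cubn (49.3 ± 29.1 CPM per kb) and Ttr (43.2 ± 26.3) followed, then Lrp2 (8.87 ± 0.870), Apoa1 (4.34 ± 4.90), Apob (2.82 ± 0.807) and Amn (0.281 ± 0.0880). The level of Cubn was thus above that of Amn in both XEN lines, with the lowest XEN line at 28.7 CPM per kb for Cubn and the highest at 0.344 for Amn. Apoe and Dab2 overlapped between lines, as did Cubn with Ttr and Apoa1 with Apob, so those neighbours have no order. In ES lines the order differed: Apoe stood at 492 ± 35.9 CPM per kb (n = 2), and the next member, Lrp2, at 0.295 ± 0.0926.

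Over the 14 line libraries (log2 CPM), which share lineage differences and passages of the same lines, Ttr ran most like Apob (r = 0.972) and Cubn (r = 0.971) among the members, and Lrp2 like Ttr (r = 0.917) and Cubn (r = 0.916). Amn, on few counts, had a negative r with every other member, with Apoe (r = -0.637) and Lrp2 (r = -0.621) more than with Cubn (r = -0.395). Dab2 and Apoe were nearly unrelated (r = 0.0963). Among all 14686 other genes compared, the nearest to Dab2 was Gata4, the endoderm regulator (r = 0.992), to Lrp2 Epas1, a hypoxia-response factor (r = 0.989), and to Cubn the predicted gene Gm5082 (r = 0.994) and the transcription factor Tcfec (r = 0.989). Apoa1 ran most like Apoa4, another apolipoprotein (r = 0.958), Ttr like Lgals2, a galectin (r = 0.997), Apob like Upk1b, a uroplakin (r = 0.978), Apoe like Pgbd1 (r = 0.952) and Amn like Hnrnpa1 (r = 0.916). These values describe likeness over the lines only.

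The technical replicates of XEN M1, from different passages, differed most among the members for Apob, Apoa1 and Ttr. The first library over the second had a ratio of 14.4 for Apob (95% counting interval 11.97 to 17.5), 9.51 for Apoa1 (6.93 to 13.3) and 5.07 for Ttr (4.42 to 5.84), against 1.52 for Apoe, 1.42 for Dab2, 1.04 for Cubn and 0.577 for Lrp2. Of the 9147 genes whose geometric mean over the XEN lines exceeded 8 CPM, Apob had the largest difference in either direction, and Ttr was among the 10 largest. Apoa1, below that level, was matched or exceeded by 2 of these genes. The same passages held Afp, the fetal albumin, at 18.8 and 3.25 CPM, Apoa2 at 3.44 and 0.296 CPM and Apoa4 at 21.9 and 6.38 CPM. Gata6 ran the other way at 254 and 467 CPM, as did Sox7 at 172 and 512 CPM, while Gata4 was level at 1237 and 1249 CPM; of 17 endoderm regulators with at least 10 counts in this line, 3 were higher by 1 or more on the log2 scale in the first library and 1 lower (median 0.14). Of other apolipoprotein and lipoprotein assembly genes with at least 10 counts in this line, 8 of 16 were higher by 1 or more on the log2 scale in the first library and 0 lower, beside 5.32% higher and 1.72% lower of 12365 genes. Serum carriers gave 4 of 5 higher, and endocytic adaptors 1 of 27. Markers of cell types gave 2 of 5 higher for visceral endoderm (median 0.74), 0 of 6 higher and 1 lower for parietal endoderm (median -0.53), 1 of 3 higher for macrophages and 2 of 2 higher for fibroblasts (median 2.06), and their part in the difference was not tested. These are values of a single pair of libraries with no replicate. For Apob, Apoa1 and Ttr the XEN M2 passages stayed closer, with ratios of 1.67, 1.06 and 1.34, while Cubn differed more than in M1, at 0.569. Over the 9147 genes the M2 libraries were further apart. The 5th to 95th percentile of the log2 difference was -0.78 to 1.23 in M2 and -0.45 to 0.65 in M1.

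**Figure D3:**
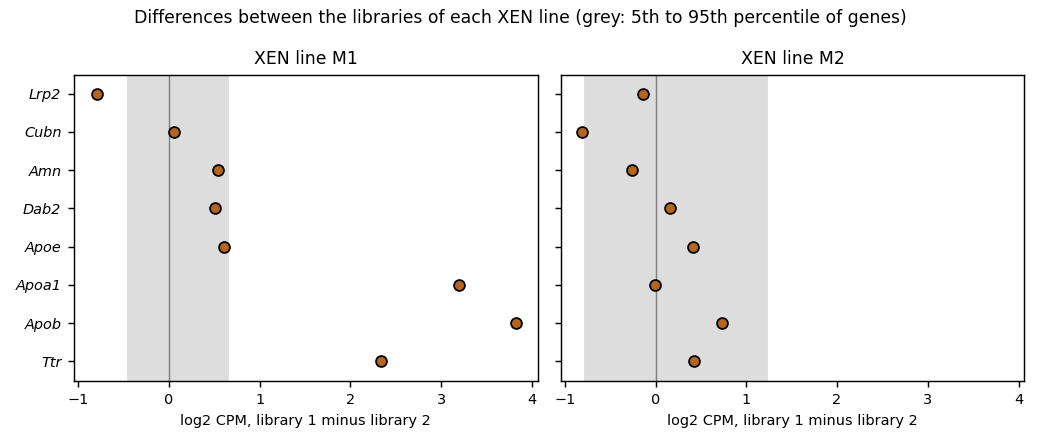
Difference in log2 CPM between the 2 libraries of each XEN line, library 1 minus library 2, for each gene; the grey band holds the 5th to 95th percentile of 9147 genes. In line M1, Apob, Apoa1 and Ttr lie at 3.83, 3.20 and 2.34, beyond the band's upper edge of 0.65, and Lrp2 lies below it at -0.79.

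The XEN lines also differed from each other. The pooled level of M1 over M2 had a ratio of 8.96 for Apoa1, 7.44 for Apoe and 2.44 for Cubn, and of 0.398 for Ttr and 0.663 for Apob. Dab2 and Lrp2 were nearly even, at 0.891 and 0.870. These ratios pool the unlike M1 libraries. By library, Apob in M2 (56.1 and 33.6 CPM) lay between its levels in M1 (75.5 and 5.24 CPM), so the lines have no order for it. For Apoa1 the second M1 library, at 1.94 CPM, lay near those of M2 (0.922 and 0.869 CPM), and the ratio rests on the first.

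Other genes of the same pathways are to be read against the share of all genes called, 21.8% higher and 45.1% in either direction against ES, and 16.4% higher and 36.7% in either direction against TS. Of receptors and ligand chaperones, 10 of 19 tested were higher and 2 lower against ES, with a list median of 0.82 on the log2 scale against -0.05 over all genes. Lrpap1, the chaperone of megalin, was higher by 3.20 and by 4.20 against TS, Hspa5, a folding chaperone, by 2.75 against ES, and the receptor Lrp10 by 2.52 against ES. Sorl1, a sorting receptor, was lower, at -9.54 against ES and -10.58 against TS. Of endocytic adaptors and machinery, 10 of 28 were higher and 2 lower (median 0.34): Clcn5, an endosomal chloride exchanger, at 3.73 and Rab11a, of recycling endosomes, at 1.64 were among those higher, and Dab1, the neuronal relative of Dab2, was lower at -8.24.

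Of other apolipoproteins and lipoprotein assembly genes, 7 of 21 were higher and 8 lower in XEN against ES (median 0.84). Clu (clusterin, 6.40) and Mttp, which loads lipid onto Apob (5.73), were higher, while Apoc1 (-7.12) and Apod (-7.47) were lower. Apoc1, the neighbour of Apoe in the genome, was lower against TS too (-8.74), where Apoe was higher. Of 19 serum and retinoid carriers 9 were tested and 5 were higher, including Rbp4, the retinol carrier that binds transthyretin (9.36), and Tcn2, the vitamin B12 carrier (3.39). Another 4 were lower, among them Fetub (-7.38). Of those higher, Afp, Fgb and Spp2 were at or near 0 in ES and TS lines and passed the low-count filter through XEN. Their direction was fixed beforehand against ES and TS, so the count of carriers higher adds no support beside the share of all genes. Other lists can hold such genes too. Of endoderm regulators 13 of 19 were higher and 2 lower (median 3.80), with Gata4 at 7.90, Sox17 at 8.62, Gata6 at 9.83 and Foxq1 at 8.36. Against TS the counts higher and lower were 7 and 2 of 19 receptors, 7 and 5 of 28 adaptors, 9 and 3 of 21 apolipoprotein genes, 5 and 2 of 9 carriers and 14 and 3 of 19 regulators. All named changes passed an edgeR adjusted p of 0.05.

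In the embryos no member passed an adjusted p of 0.05 for Nanog genotype in the main edgeR fit. The spread between embryos was wide (biological coefficient of variation 0.979, beside 0.346 in the lines), so a member that did not pass is not shown to be unchanged. Of the 7 members tested, 0 passed in Nanog-null against Nanog-bearing embryos, where 0.0154% of 12965 genes passed (2 genes). An unadjusted edgeR p under 0.05 was held by 4.97% of genes and, of the members, by Cubn. Ttr held one too, but it passed the low-count filter only through null embryos, so its direction was fixed beforehand. DESeq2 called 0 members and 0.671% of genes (87), and limma voom called 0 members. Against wild-type embryos 0 of 7 members passed and 0.0154% of genes did, and against heterozygous embryos 0 of 7 and 0.00771% (1 gene).

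**Figure D4:**
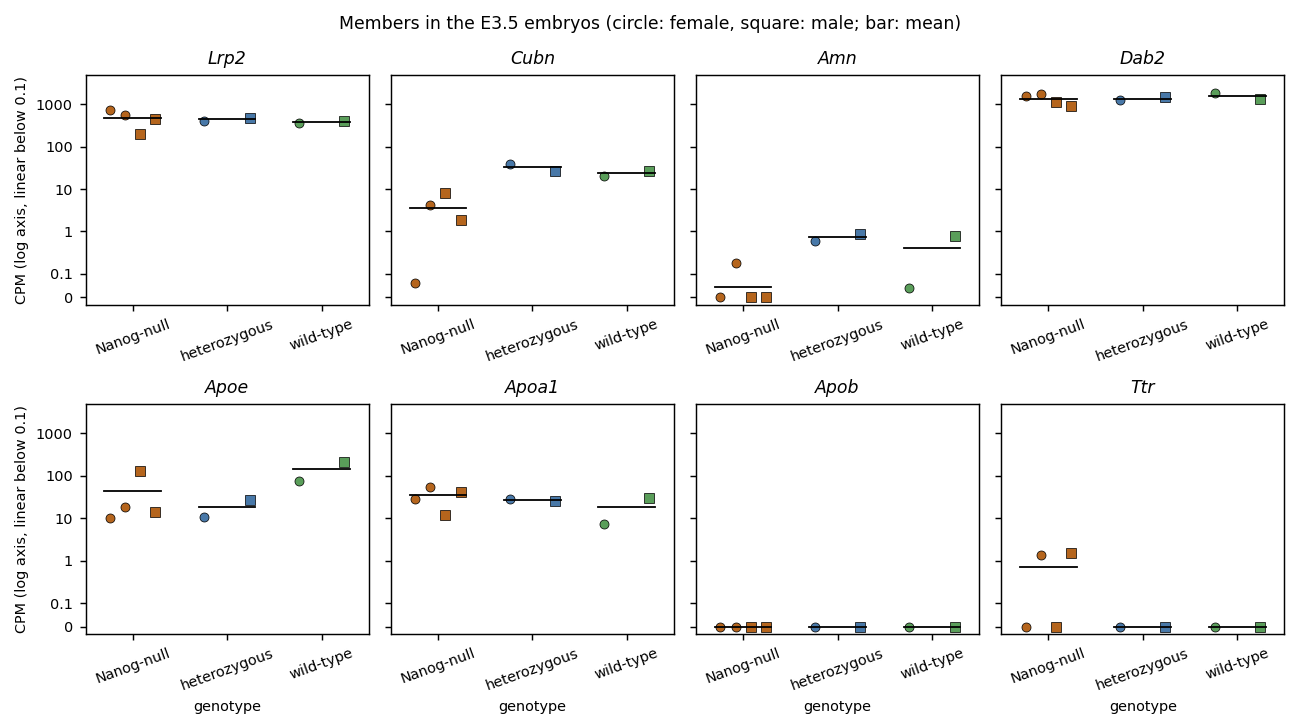
Level of each gene in every embryo (CPM, log axis, linear below 0.1), for 4 Nanog-null, 2 heterozygous and 2 wild-type embryos; circles are female, squares male, and bars are means. Cubn is lower in each null embryo than in any other, Dab2 and Lrp2 are high in all 8, and Apob is at 0 in all 8.

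Cubn was read at 0.0610, 4.29, 8.16 and 1.85 CPM in the null embryos F1, F2, M1 and M2. It stood at 39.0 and 26.0 CPM in the heterozygous and 20.3 and 26.5 CPM in the wild-type embryos (female, male). All 4 null embryos lay below all 4 Nanog-bearing embryos, as 4.21% of tested genes did. The log2 fold change was -2.99 (SE 1.11, 95% interval -5.47 to -0.51, unadjusted p = 0.0229, edgeR adjusted p = 0.931), -2.69 (SE 1.21) against wild-type and -3.28 (SE 1.25) against heterozygous embryos. The null embryos lacking the most genes, F1 and M2, had the least Cubn, and without both of them the difference was -2.13 (edgeR adjusted p = 0.903). The 6 parietal endoderm markers summed to 28.0 to 108 CPM in null, 107 to 212 CPM in heterozygous and 273 to 402 CPM in wild-type embryos, with Stra6 at 0 in all, and 0 of 5 tested passed (median log2 fold change -2.18). The 5 XEN markers summed to 142 to 234 CPM in null, 242 to 254 CPM in heterozygous and 168 to 245 CPM in wild-type embryos, and 0 of 4 tested passed (median -2.43). Of these 4, Gata6 was at 0.34 on the log2 scale, and Gata4 (-3.88), Sox17 (-3.43) and Pdgfra (-1.43) were lower. Visceral markers summed to 40.5 to 91.2 CPM in null, 25.6 to 27.1 CPM in heterozygous and 18.1 to 21.1 CPM in wild-type embryos, and 0 of 2 tested passed (median -0.54). These 2 ran in opposite directions, with Cited1 at 2.25 and Hnf4a at -3.33 on the log2 scale. Ihh and Spink3 were at 0 in all embryos, and Afp was at 0 in null and wild-type embryos. The part of the missing genes and of these markers in the result was not tested.

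Lrp2 was high in all embryos, at 722, 548, 198 and 447 CPM in null (F1, F2, M1, M2), 407 and 468 CPM in heterozygous and 357 and 408 CPM in wild-type embryos. Dab2 was higher still, at 1550.5, 1713, 1104 and 902 CPM in null, 1258 and 1453 CPM in heterozygous and 1795 and 1297 CPM in wild-type embryos. The genotypes overlapped for both genes. The log2 fold change in null against Nanog-bearing embryos was 0.29 for Lrp2 (95% interval -0.49 to 1.08) and -0.06 for Dab2 (95% interval -0.53 to 0.41).

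Amn was barely read, with 0, 4, 0 and 0 counts in the null embryos (F1, F2, M1, M2), 14 and 13 in the heterozygous and 1 and 25 in the wild-type embryos. Null embryos F1, M1 and M2 held none, and the wild-type female held fewer counts than the null embryo F2. The pooled level was 0.0914 of that in Nanog-bearing embryos (95% counting interval 0.0240 to 0.248), and the fitted log2 fold change of -3.64 had an SE of 2.72 (edgeR adjusted p = 0.967).

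Apoe differed between embryos of the same genotype. The null embryos held 10.1, 18.1, 131 and 14.1 CPM (F1, F2, M1, M2), the heterozygous embryos 10.9 and 26.3 CPM and the wild-type embryos 77.1 and 207 CPM. The null male M1 lay between the wild-type embryos, F2 and M2 between the heterozygous embryos and F1 just below them. Against wild-type, the log2 fold change was -1.91 in null (SE 0.67, unadjusted p = 0.0172, edgeR adjusted p = 1) and -2.87 in heterozygous embryos (SE 0.85, unadjusted p = 0.00739, adjusted p = 1); these comparisons share the 2 wild-type embryos, and 3.86% of genes had such a p in the null comparison. No gene passed between heterozygous and wild-type embryos (0 of 12965 by edgeR, or 0%; 0.825% or 107 at an unadjusted p under 0.05; 0.586% or 76 by DESeq2), but with no filter on low counts Apoe did (-2.88, edgeR adjusted p = 0.0362). Over the alternatives the adjusted p was between 0.0362 and 1.

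Apoa1 stood at 29.1, 54.5, 11.6 and 42.3 CPM in null, 28.4 and 24.9 CPM in heterozygous and 7.45 and 30.3 CPM in wild-type embryos, with full overlap (log2 fold change 0.78 against Nanog-bearing, SE 0.66). The 5 hepatocyte markers together summed to 90.9 to 437 CPM in null, 344 to 520 CPM in heterozygous and 175 to 266 CPM in wild-type embryos. Alb and Serpina1a were at 0 in all embryos, and Cps1 was at 0 in heterozygous embryos. Tat, a tyrosine-degrading enzyme, was the only one of these markers with enough counts to test. It had a log2 fold change of -0.14 in null embryos (edgeR adjusted p = 0.998). The part of these markers in the Apoa1 levels was not tested. Apob was at 0 in all 8 embryos, which at 3 counts allows up to 0.0931 to 0.203 CPM per library, and so was not tested. Ttr gave 29 and 30 counts in the null embryos F2 and M2 and 0 in the other 6 embryos. Against a floor of 3 counts over the Nanog-bearing embryos it was at least 23.8-fold higher in the null embryos, on 2 of 4 embryos. No p-value is given, because Ttr passed the low-count filter only through these null embryos.

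**Figure D5:**
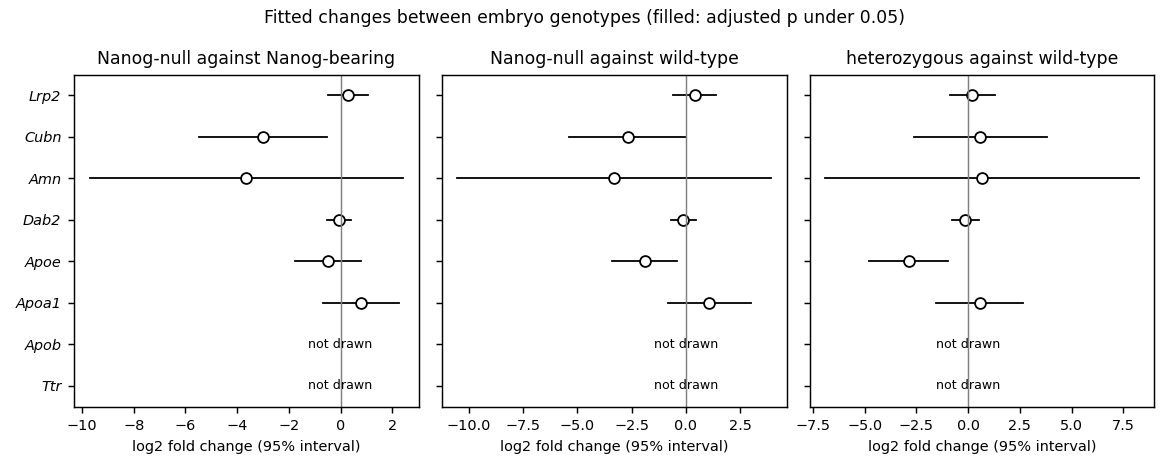
Fitted log2 fold change of each gene with its 95% interval between embryo genotypes; none passed an edgeR adjusted p of 0.05. The intervals of Dab2 and Lrp2 are narrow around 0, that of Cubn lies below 0 against Nanog-bearing embryos, and Apob and Ttr are not drawn.

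Per kilobase, Dab2 led in embryos at 282 ± 81.1 CPM per kb in null (SD, n = 4) and 311 ± 52.4 in Nanog-bearing embryos (n = 4). Lrp2 stood at 31.0 ± 14.1 and 26.5 ± 2.93 CPM per kb in null and Nanog-bearing embryos, and Apoa1 at 33.2 ± 17.8 and 21.98 ± 10.1. Cubn was at 0.319 ± 0.311 CPM per kb in null and 2.48 ± 0.701 in Nanog-bearing embryos, below Lrp2 in each. The effect of the null genotype did not pass a test for a difference between the sexes for any of the 7 members tested (edgeR interaction, adjusted p = 1.00).

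Of the related lists, 0 genes passed in Nanog-null against Nanog-bearing embryos: of 17 receptors, 27 adaptors, 17 apolipoprotein genes, 3 carriers and 12 endoderm regulators tested. Among the genes nearest to the threshold, log2 fold changes were 1.55 (Rab11a, SE 0.51), -0.80 (Apoc1, SE 0.27) and -8.76 (Nr1h3, a sterol-sensing nuclear receptor, SE 2.65), each with an edgeR adjusted p of 0.931. The fit of Nr1h3 had fewer degrees of freedom (6.94 beside 9.94), a mark of zero counts, so the size of its change is uncertain. The median log2 fold change was -0.53 for receptors, 0.03 for adaptors, -0.06 for apolipoprotein genes, -0.17 for carriers and -0.80 for regulators, beside -0.05 over all genes tested. In the authors' deposited table of Nanog-regulated genes, 78 genes were listed, 71 down and 7 up, and 0 of the 8 members were among them.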

How the data were processed

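RNA was measured in 8 embryos and 14 libraries of 7 lines. The deposited values are whole-number read counts per gene symbol, made by the authors with TopHat 1.3.1 on mm9 per the submitters' processing notes, which also name edgeR; the counting program, annotation and strand setting were not given in these sources, so overlapping antisense genes cannot be told apart. The authors' deposited gene list was read for the direction word of each gene. Another 22 value columns of the deposited tables were not used. Both libraries of a line were summed, which left 2 XEN, 3 TS and 2 ES lines.

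Counts were fitted with edgeR 4.0.16 (R 4.3.3; TMM, filterByExpr, robust quasi-likelihood test, Benjamini-Hochberg over all tested genes, threshold 0.05), 7 lines in one fit (14687 genes) and 8 embryos in another with sex as a term (12965 genes). DESeq2 1.42.0 and limma 3.58.1 voom were alternatives, with size-factor scaling, no filter, samples left out, libraries apart or unsummed, and no sex term. The scripts were tested on simulated data. Intervals of ratios cover counting error only. Nanog-bearing means heterozygous and wild-type weighted equally.

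The members and lists were chosen with earlier results of these data known. Named genes are the members, lineage markers, up to 4 called genes of each list with the smallest p against ES, up to 2 per list in the embryos and the 3 genes most like each member by Pearson r of log2 CPM with a prior count of 2; genes named in XEN M1 passages were chosen after their values were seen. Some genes that this rule names are not reported here. Promoters are RefSeq's (GRCm38.p6), transcript lengths GENCODE's; no coordinates of the files were used.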

Additional observations from a re-analysis of the deposited data

Results flagged for a closer look

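Of 29 groups of 4 to 10 libraries checked for a value apart from the others, 6 held one; chance gives about 1 in 20 groups. In the TS line M3, the first library had 4.21 CPM of Lrp2, above the other TS libraries, and the second had 87.5 CPM of Apoe. Of the null embryos, M1 had 131 CPM of Apoe, far above the other null embryos, and F2 had 0.183 CPM of Amn, where the other null embryos had 0. For Apoa1, the first library of XEN M1 stood apart at 18.5 CPM, and the first library of ES F1 was at 0.0 CPM, where the other ES libraries had 1 count each.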

How the results depend on the processing

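Over 711 alternatives to single-gene results, 667 kept direction and call, 24 turned direction, 10 lost and 10 gained a call. The XEN counts of members called in either direction were 5 to 7 against ES and 7 to 8 against TS with a line left out, of which 1 was lower without XEN M1 (Apoe, against ES) and 1 without TS M3 (Amn, against TS); TS against ES gave 2 to 5 (2 without ES F1 or ES M2). A lineage left with 1 line was assumed to vary like the others. All embryo counts stayed at 0 with an embryo left out, and with no low-count filter heterozygous against wild-type gave 1 (Apoe). The passage numbers did not pair lines (r -0.53 to 0.32 over 21 pairs of lines, 3 over 0.1); with the replicate block on unsummed libraries 6, 8 and 5 members were called in XEN against ES, XEN against TS and TS against ES, and 6, 8 and 5 without it, the added XEN against TS call being Amn, lower.

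Directions turned for these. Apoe in XEN against ES was -0.40 by limma voom, -0.19 from second libraries and -1.85 to 1.04 with a line left out. In TS against ES, left-out lines gave -0.66 to 0.083 for Cubn and -0.58 to 0.20 for Apoa1. In null against Nanog-bearing embryos, Dab2 ran from -0.23 to 0.11 with an embryo left out, and without null F1 and M2 Lrp2 was -0.15, Dab2 0.0049 and Apoe 0.20. Against wild-type, Amn in null embryos ran from -5.90 to 0.62, and Lrp2 was -0.050 without F1 and M2. Against heterozygous, Lrp2 ran from -0.10 to 0.53 (-0.26 without F1 and M2) and Dab2 from -0.32 to 0.37. In heterozygous against wild-type, left-out embryos gave -0.14 to 0.62 for Lrp2, -0.35 to 1.24 for Cubn, -0.77 to 5.42 for Amn, -0.51 to 0.18 for Dab2 and -0.40 to 2.07 for Apoa1. The cause was not tested. Genes at or near 0 (Amn, Ttr and Apob in embryos; Apoa1 in TS and ES) are limited by counting.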
